A study of Mus musculus with 2 samples.

Results

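The genes that encode the proteins of the cytoplasmic ribosome were examined in RNA-seq of mouse embryonic stem (ES) cells and of E10.5 forebrain (the embryonic stage of the tissue). A gene was taken when its symbol in the NCBIM37 annotation is Rpl or Rps followed by a number, with an optional a, x or l ending, or is *Rplp0*, *Rplp1*, *Rplp2* or *Rpsa*, and names of pseudogenes and of the Rps6k kinases were left out. The rule found 83 genes among the 29311 genes listed for both samples, 51 for the large and 32 for the small subunit, and all 83 were above 0 in both samples. Of these, 7 are paralogs whose name adds an l to that of another ribosomal protein gene (*Rpl3l*, *Rpl7l1*, *Rpl10l*, *Rpl22l1*, *Rpl36al*, *Rpl39l* and *Rps27l*), which leaves 76 others. Genes that encode ribosomal proteins under other names, such as *Fau* and *Gnb2l1*, and *Rps4y2* fall outside the rule.

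The series compares ES cells of the E14 line, wild type (WT), with E10.5 forebrain cells of WT embryos of the B6CBAF1/J strain, and holds 1 sample of each. ES cells are cultured cells that resemble the inner cell mass of the blastocyst, whereas the forebrain sample is a dissected tissue, whose RNA came from single embryos according to the methods of the study. The samples therefore differ in strain, in culture against tissue and in the Trizol reagent used for extraction, and none of these can be told apart from the difference between the cell types. With 1 sample per group there is no replicate check and no test, and the intervals given here are 95% intervals for counting error only. The depth, inferred from the low values as described further on, was 42782174 reads for ES cells and 59787014 for the forebrain, summed over genes. In this sum a read on overlapping genes may count more than once, which was not tested. All 7 ES cell markers were higher in ES cells (898.5 to 11505 RPKM against 1.59 to 58.9) and all 7 forebrain markers were higher in the forebrain, with *Lhx2* listed at 0 in ES cells. All 6 red blood cell markers were also higher in the forebrain, with summed values of 799065 RPKM against 373.2 in ES cells. The same held for 5 of 5 head mesenchyme markers and 4 of 5 endothelial markers. In bulk samples of this kind, fewer cells of a type and less RNA per cell cannot be told apart.

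Ribosomal proteins assemble with ribosomal RNA into a large and a small subunit, and cells that grow and divide quickly spend much of their transcription and translation on them. In mammals most of these proteins come from a single expressed gene, but their abundant mRNAs have been copied back into the genome many times, which left numerous processed pseudogenes. Their mRNAs typically start with a C followed by a run of pyrimidines, the terminal oligopyrimidine (TOP) motif, through which mTOR signalling and the RNA-binding protein *Larp1* control their translation. A few paralogs are known for restricted expression, such as *Rpl10l* and *Rpl39l* in male germ cells and *Rpl3l* in heart and skeletal muscle.

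*Rpl39* and its paralog *Rpl39l* show how much sequence a paralog can share. Their coding sequences, of 156 bases each, are given in full from the NCBIM37 annotation, because *Rpl39l* differed widely between the samples. Capitals mark the 23 bases that differ between them.
Rpl39: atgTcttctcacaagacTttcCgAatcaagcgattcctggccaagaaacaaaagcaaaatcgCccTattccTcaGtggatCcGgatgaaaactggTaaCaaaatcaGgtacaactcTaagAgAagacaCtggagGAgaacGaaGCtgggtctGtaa
Rpl39l: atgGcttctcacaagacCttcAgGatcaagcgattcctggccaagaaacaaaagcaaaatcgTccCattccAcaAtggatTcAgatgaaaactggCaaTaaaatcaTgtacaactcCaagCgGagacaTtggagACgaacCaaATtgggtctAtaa
The pair shared 133 of 156 bases (85.3%) and 48 of 51 residues, and the longest stretch without a difference was 38 bases, so that no run of 50 coding bases was shared. *Rpl10l* and *Rpl10* shared 84.8% of bases and 211 of 214 residues, and *Rpl36al* and *Rpl36a* shared 87.9% of bases and all 106 residues. The other pairs shared fewer of their aligned columns, gaps included, with 73.3% for *Rpl3l* and *Rpl3* and 68.2% for *Rpl22l1* and *Rpl22*. The values of 61.0% for *Rps27l* and *Rps27* and 48.1% for *Rpl7l1* and *Rpl7* depend on the annotated coding sequences used, the longest per gene. That of *Rps27l* had 318 bases, beside 255 for *Rps27*. That of *Rpl7* had 838 bases, which is not a whole number of codons, beside 741 for *Rpl7l1*. How distant these last pairs are is therefore not settled here.

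The starts of the genes were read from RefSeq promoter sequences (GRCm38.p6), which were matched for 62 of the 83 genes. A run of at least 7 bases, each C or T on the strand of the gene and overlapping the 10 bases on either side of the annotated start, was present at 31 of 62 starts (50%) and at 19.5% of the starts of all 27025 genes in the table. A run of at least 10 bases was present at 32.3% against 6.83%, and a C stood at the annotated start in 32.3% against 16.2%. TATAAA was found on the strand of the gene, in the 50 bases before the start, in 1 of 62, beside 2.88% of all genes. The 50 bases from 40 before to 10 after the start are shown for 4 genes with long runs and for the paralogs *Rpl10l* and *Rpl39l*, a choice made after the values were seen, and capitals mark the run.
Rpl14 (chr9:120571477-120571526, plus strand): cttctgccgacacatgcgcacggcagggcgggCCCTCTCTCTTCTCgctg
Rpl4 (chr9:64173347-64173396, plus strand): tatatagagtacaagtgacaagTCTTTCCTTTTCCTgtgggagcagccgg
Rplp2 (chr7:141447611-141447660, plus strand): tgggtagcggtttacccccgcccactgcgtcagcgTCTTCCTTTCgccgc
Rps18 (chr17:33955656-33955705, minus strand): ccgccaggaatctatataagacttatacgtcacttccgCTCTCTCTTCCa
Rpl10l (chr12:66284392-66284441, minus strand): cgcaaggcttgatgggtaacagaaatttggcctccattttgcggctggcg
Rpl39l (chr16:10170188-10170237, plus strand): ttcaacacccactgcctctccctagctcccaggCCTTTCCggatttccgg
The run covered 14 bases in *Rpl14* and *Rpl4*, which encode structural proteins of the large subunit, 11 bases in *Rps18* and 10 bases in *Rplp2*. *Rpl39l* carried a run of 7 bases and *Rpl10l* none. The runs of *Rpl39l* and *Rpl4* lay wholly before the annotated start, so a run counted here need not be part of the mRNA. The median log2 ratio of RPKM + 1 in ES cells over the forebrain was 1.08 for 28 genes with a run and 1.03 for 27 without, paralogs left aside.

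The deposited values are RPKM, reads per kilobase of exon with a scaling per library by the authors. Levels are given here as listed. Setting them side by side between genes is limited by the copies of these genes and by how reads with several matches were counted, as described further on. It is also limited by the exonic length, which joins all annotated transcripts of a gene and runs from 345 to 6262 bp among the 83 genes. *Rpl8*, which encodes a protein close to the peptidyl transferase centre, had the highest level of all 83 genes in both samples, 89608 RPKM (interval 88911 to 90309) in ES cells and 54350 RPKM (53905 to 54797) in the forebrain. *Rps3*, which lines the mRNA entry channel, was also among the highest, with 39809 RPKM (39605 to 40013) and 24358 RPKM (24228 to 24489). The intervals of *Rpl8* and *Rps3* did not overlap each other within a sample. *Rps2* came after *Rps3* in ES cells with 34977 RPKM, whereas in the forebrain it had 13025 RPKM, below *Rpl14* (26740 and 18093 RPKM) and *Rpl4* (20492 and 14573 RPKM). The 5 genes with the highest values made up 51.7% of the summed RPKM of the 83 genes in ES cells and 56.0% in the forebrain.

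At the low end, the levels of the 76 genes without paralogs fell to 193.2 RPKM in ES cells and 140.0 RPKM in the forebrain. *Rpl29* was lowest in ES cells (193.2 RPKM, interval 161.0 to 230.1) and stood at 236.9 RPKM in the forebrain (207.1 to 269.3). *Rps13* was lowest in the forebrain (140.0 RPKM, 122.5 to 158.8) and stood at 532.8 RPKM in ES cells. The entry listed as *Rpl24* was also among the lowest in ES cells, with 543.4 RPKM (523.1 to 564.5). Its interval overlapped that of *Rps13* (491.1 to 577.2). This entry has 6029 bp of exons and may hold more than the mRNA of *Rpl24*. Whether its level is that of *Rpl24* was not tested. In the forebrain, the intervals of *Rps3a* (236.2 RPKM), *Rpl29* and *Rps29* (242.1 RPKM) overlapped, so that their order is not resolved. The levels as listed thus spanned 464-fold in ES cells and 388-fold in the forebrain, a span that may also carry differences in annotated exonic length.

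The order of the levels was much the same in both samples. Over the 76 genes, Spearman's rho between the samples was 0.95 and Pearson's r of the log2 levels was 0.96, given as descriptions, since the points share annotation, exonic length and mapping. Of the 76 genes, 64 kept their place within 10 ranks. The 83 genes had a median percentile of 93.1 among all listed genes in ES cells and of 85.6 in the forebrain.

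**Figure D1:**
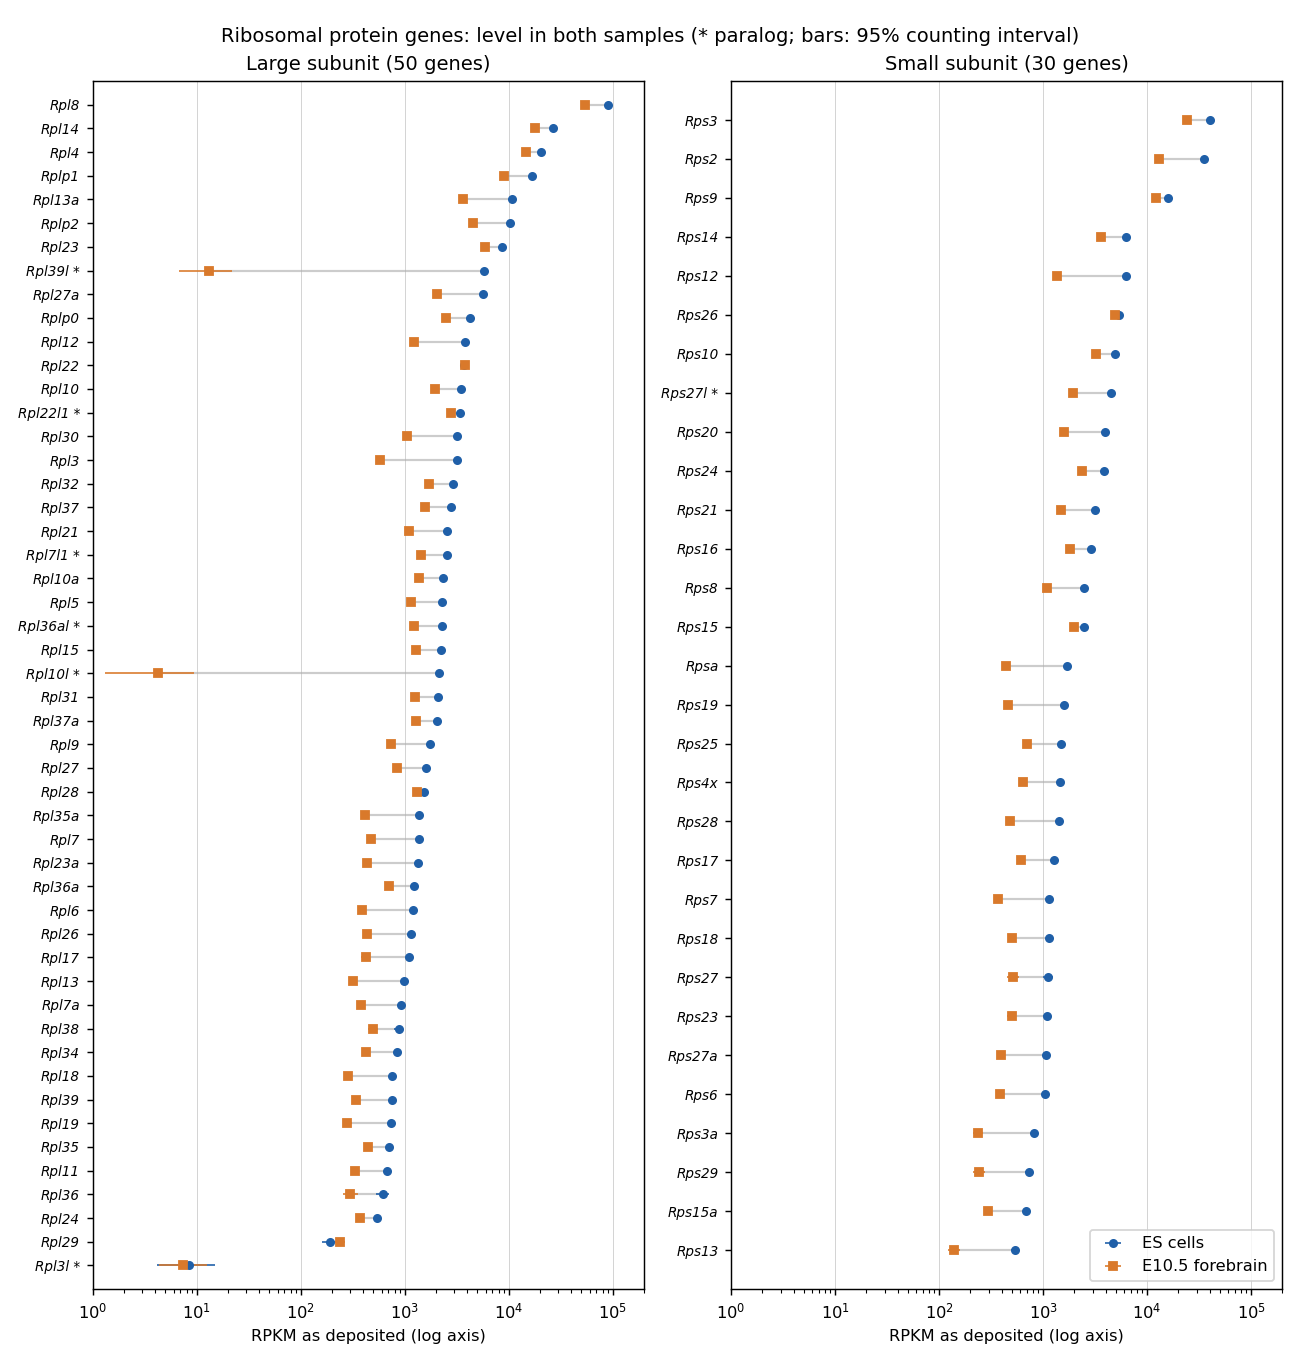
Level of 80 of the 83 genes in RPKM (log axis), with ES cells as blue circles and the forebrain as orange squares, by subunit and in order of the ES cell level; bars are 95% counting intervals and asterisks mark paralogs. *Rpl8* has the highest level in both samples, most genes lie to the right in ES cells, and the widest gaps are those of *Rpl39l* and *Rpl10l*.

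Ribosomal protein genes were mostly higher in ES cells. For the comparison, the log2 ratio of RPKM + 1 in ES cells over the forebrain was taken for genes with at least 10 RPKM in either sample, which kept 22093 genes and 82 of the 83 ribosomal protein genes, all but *Rpl3l*. Of the 82 genes, 80 were higher in ES cells, where 49.2% of all genes tested were, and the exceptions were *Rpl22* and *Rpl29*. A difference of at least 2-fold was seen for 46 genes (56.1%) in favour of ES cells, against 22.7% of all genes tested, and for 0 genes in favour of the forebrain, against 26.3%. At 1.5-fold the counts were 69 and 0, against 31.7% and 34.4%. The median log2 ratio was 1.08, a 2.12-fold difference, beside -0.02 over all genes tested and -0.20 over protein-coding genes. Both members and background are read from the same pair of libraries, so these shares describe these libraries. Among the 11 of the 82 genes for which at least 80% of sequence windows were unique, as defined further on, the median log2 ratio was 0.72 and 5 genes passed 2-fold.

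**Figure D2:**
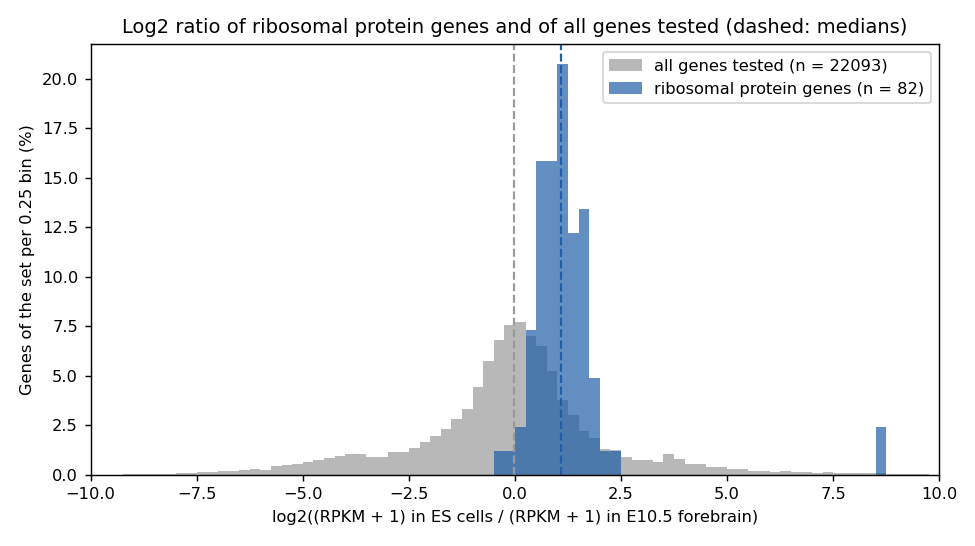
Distribution of the log2 ratio (ES cells over the forebrain, RPKM + 1) in bins of 0.25, as a percent of the 82 ribosomal protein genes (blue) and of all 22093 genes tested (grey), with dashed lines at the medians of 1.08 and -0.02. The ribosomal protein genes form a narrow group to the right of 0, apart from *Rpl10l* and *Rpl39l* near 8.67.

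The spread among the genes depended on the paralogs. The SD of the log2 ratio was 1.28 over the 82 genes, with a range of -0.29 to 8.67, beside an SD of 2.38 over all genes tested. Over the 76 genes without paralogs the SD was 0.51 and the range -0.29 to 2.47. Large subunit genes had a median log2 ratio of 0.98 (45 genes) and small subunit genes of 1.18 (31 genes), a gap smaller than the SD within either subunit (0.51 and 0.52).

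In the large subunit, the widest difference outside the paralogs was that of *Rpl3*, a protein near the peptidyl transferase centre. It had 3196 RPKM in ES cells and 574.2 RPKM in the forebrain (5.57-fold, interval 5.18 to 5.99). With the reads of its annotated copies added, as described further on, its log2 ratio fell from 2.47 to 1.90. *Rpl35a* followed with 1374 and 418.7 RPKM (3.28-fold) and *Rpl12*, a protein at the base of the stalk, with 3822 and 1230 RPKM (3.11-fold). At the other end, *Rpl22* stood at 3734 and 3810 RPKM, a ratio of 0.98 (0.954 to 1.01), and *Rpl28* at 1547 and 1324 RPKM (1.17-fold, 1.09 to 1.25). The ratio of *Rpl29*, 0.816, rested on 126 and 230 reads and had an interval of 0.652 to 1.02. For both genes that were higher in the forebrain the interval therefore included equality. The stalk proteins, which contact translation factors, were all higher in ES cells. Levels were 4217 and 2526 RPKM for *Rplp0* (1.67-fold), 16644 and 8963 RPKM for *Rplp1* (1.86-fold) and 10267 and 4592 RPKM for *Rplp2* (2.24-fold). With the reads of their copies added, their log2 ratios were 0.61, 0.94 and 0.91, all below 2-fold.

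In the small subunit, *Rps12* stood at 6252 RPKM in ES cells and 1370 RPKM in the forebrain (4.56-fold, interval 4.22 to 4.93). *Rpsa*, which is also known as the laminin receptor, followed with 1711 and 435.8 RPKM (3.93-fold, 3.65 to 4.23) and *Rps13* with 532.8 and 140.0 RPKM (3.81-fold, 3.27 to 4.45). *Rps19*, the gene most often mutated in Diamond-Blackfan anaemia, had 1588 and 457.6 RPKM (3.47-fold) and *Rps3a* had 819.5 and 236.2 RPKM (3.47-fold). *Rps6*, the substrate of the S6 kinases, had 1044 and 385.4 RPKM (2.71-fold). The smallest difference was that of *Rps26*, with 5373 and 4857 RPKM (1.11-fold, 1.04 to 1.17), followed by *Rps15* with 2444 and 1968 RPKM (1.24-fold). Among the genes with the highest levels, the differences were moderate, at 1.65-fold for *Rpl8* and 1.63-fold for *Rps3*, with *Rps2* at 2.69-fold.

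The 4 X-linked genes lay within the range of the others, with ratios of 1.77-fold for *Rpl10* and *Rpl36a*, 2.21-fold for *Rpl39* and 2.27-fold for *Rps4x*. Their median log2 ratio was 0.98, beside 1.08 for the 72 autosomal genes without paralogs. *Rps4y2*, outside the rule and looked at after its values were seen, had 7071 RPKM in ES cells and 888.9 RPKM in the forebrain (7.96-fold).

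The 83 genes summed to 487696 RPKM in ES cells and 278885 RPKM in the forebrain, a ratio of 1.75. As a share of all reads on genes, the 83 genes took 1.64% in ES cells and 0.987% in the forebrain. The binomial intervals of both shares were narrower than 0.01 percentage points, but the shares moved with the denominator. Against protein-coding genes only they were 2.31% and 1.30%. The 20 genes with the most reads include *Hbb-y*, with 296683 reads in the forebrain and 90 in ES cells, and also *Rps3*, one of the 83 genes. With these 20 genes left out of both the gene set and the total, the remaining 82 genes took 1.60% and 0.926%. The share was thus larger in ES cells under each of these denominators.

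The paralogs held the widest differences. *Rpl39l* (NCBIM37, chr16:10170319-10175004, plus strand) stood at 5752 RPKM (interval 5573 to 5935) in ES cells and 13.1 RPKM (6.82 to 21.9) in the forebrain, from 3915 and 13 inferred reads. This is a 438-fold difference with a counting interval of 262.2 to 843.8. *Rpl10l* (chr12:67384368-67385388, minus strand, a single exon of 1021 bp) stood at 2143 RPKM (2046 to 2246) in ES cells and 4.28 RPKM (1.30 to 9.36) in the forebrain, from 1793 and 5 reads. The difference was 501-fold, with a wide interval of 228.6 to 1648. Both forebrain levels thus rested on few reads, and neither gene overlapped an exon of another annotated gene on its strand. Windows of 50 bases along the mRNA occurred only once in the genome for 100% of the windows of *Rpl39l* and 73.7% of those of *Rpl10l*.

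The genes after which they are named behaved differently. *Rpl39* had 759.0 RPKM in ES cells and 343.2 RPKM in the forebrain (2.21-fold), so that *Rpl39l* was listed above *Rpl39* in ES cells and below it in the forebrain. *Rpl10* had 3512 and 1979 RPKM (1.77-fold) and was listed above *Rpl10l* in both samples. The windows of the parent genes were less unique, however, at 37.5% for *Rpl39* and 6.33% for *Rpl10*, which also carries a snoRNA gene on an annotated exon. Orders within these pairs are therefore uncertain. One annotated pseudogene, *Gm14460*, matched *Rpl10l* over 99.1% of its coding sequence with 97.3% identity and held 1353 reads in ES cells and 4 in the forebrain, so that reads from the paralog and this copy may not be told apart.

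The other paralogs showed smaller differences. *Rpl36al* had 2272 and 1231 RPKM (1.85-fold) and *Rps27l*, a gene known to respond to p53, had 4467 and 1935 RPKM (2.31-fold). *Rpl7l1* had 2542 and 1450 RPKM (1.75-fold) and *Rpl22l1* had 3405 and 2785 RPKM (1.22-fold). *Rpl36al*, *Rps27l* and *Rpl7l1* were listed above *Rpl36a*, *Rps27* and *Rpl7* in both samples, while *Rpl22l1* was listed below *Rpl22* in both. Of the genes they are named after, *Rpl36a* had 13.4% unique windows, *Rps27* 0% and *Rpl7* 27.4%, whereas *Rpl22* had 92.4%. *Rpl3l*, the muscle paralog of *Rpl3*, had 8.42 RPKM in ES cells and 7.45 RPKM in the forebrain, from 11 and 15 reads, with overlapping intervals.

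**Figure D3:**
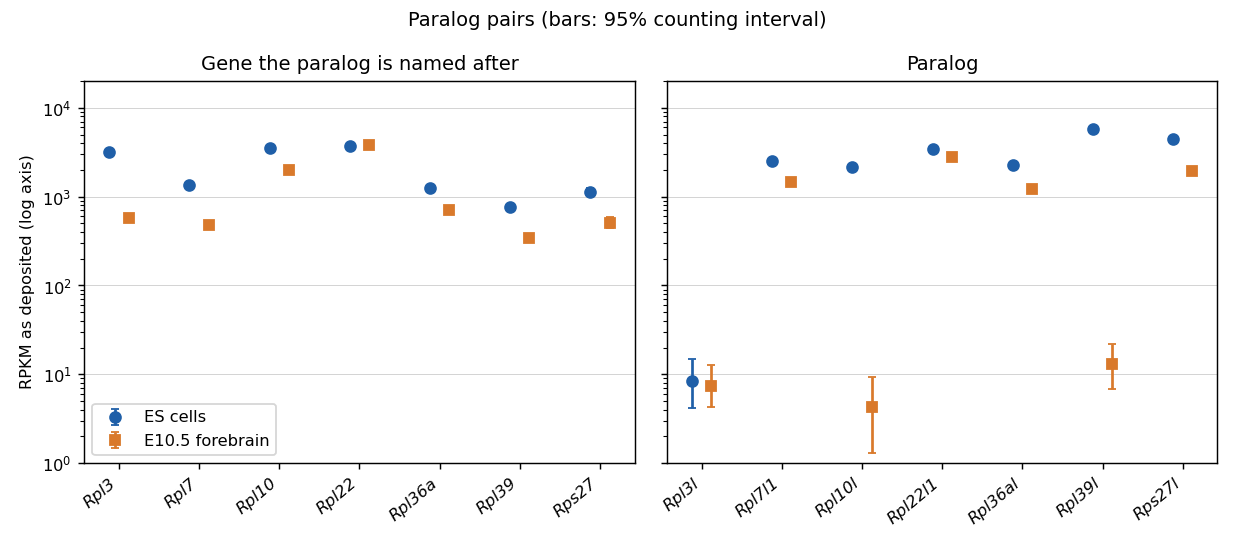
Levels in RPKM (log axis) of the 7 paralogs (right) and of the genes they are named after (left), with ES cells as blue circles, the forebrain as orange squares and 95% counting intervals as bars. *Rpl10l* and *Rpl39l* drop to 4.28 and 13.1 RPKM in the forebrain, and *Rpl3l* is low in both samples.

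Because of the many copies of these genes, how reads that match several places were counted bears on every value. The value of 1 read was visible in the low values, since RPKM times exonic length in kilobases piled up at multiples of a step, 1.22 for ES cells and 0.819 for the forebrain. Of other genes with low values, 68.2% of 5982 in ES cells and 71.1% of 5620 in the forebrain lay within 0.05 of a whole number of reads, where 10% would by chance. Values under 1 read also occurred, for 1034 genes in ES cells and 1039 in the forebrain, and 65.9% and 72.1% of them lay within 0.02 of 1/2, 1/3, 1/4 or 1/5 of a read. None of these values was below 1/5 of a read. In these tables, reads thus appear in shares down to 1/5, and reads of a gene with split counts are sums of such shares, rounded here.

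**Figure D4:**
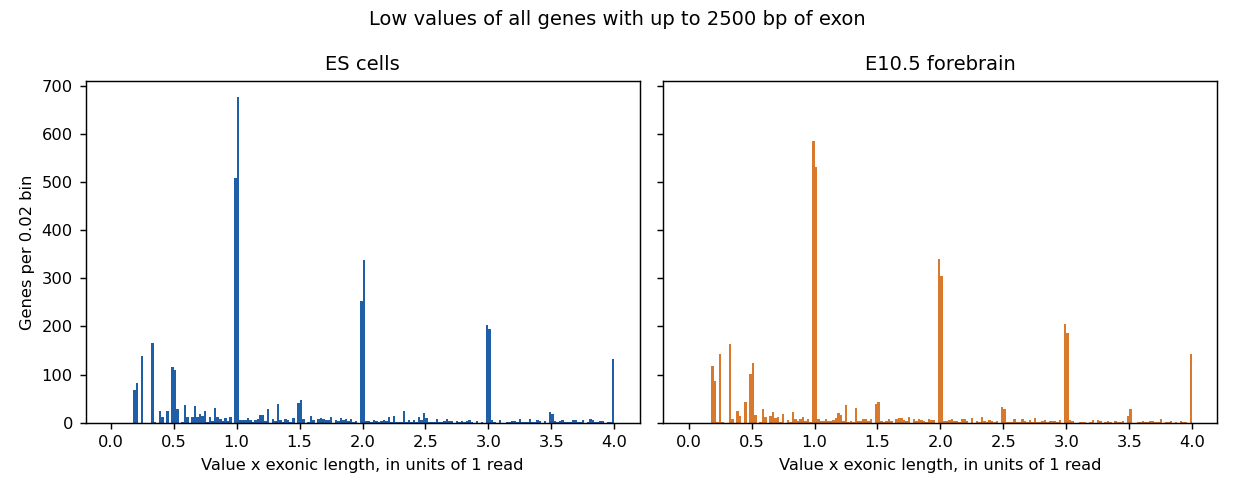
Number of genes (exonic length of 2500 bp or less) by value times exonic length, in units of 1 read and bins of 0.02, in ES cells (left) and the forebrain (right). The peaks stand at 1, 2, 3 and 4 reads and at 1/2, 1/3, 1/4 and 1/5 of a read, with none lower.

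Annotated copies were found by matching listed genes to the coding sequences of the 83 genes, asking for 90% identity or more along 50% or more of the copy. There were 647 copies of 76 genes, 477 of them annotated as pseudogenes and 166 as protein-coding, and 20 were identical to their parent over the match. *Rpl21* had the most copies (48) and the median was 5. In low values of the copies, only 17.1% of 287 in ES cells and 20.7% of 309 in the forebrain lay at a whole number of reads, a much smaller share than in other genes. Together the copies held reads equal to 46.6% of those of the 83 genes in ES cells and 56.3% in the forebrain. For 28 genes in ES cells and 36 in the forebrain, the copies held more reads than the gene itself. The copies with the most reads were *Rpl14-ps1* (34802 and 35554 reads), *Gm5805*, a copy of *Rps14* (12806 and 13717), *Gm11478*, a copy of *Rpl13a* (13902 and 11770), *Gm11942*, a copy of *Rplp1* (13870 and 10671), and *Gm14513*, a copy of part of *Rps3* (11122 and 10764).

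*Rps13* and *Rpl38* show what this means for single genes, and were chosen after their values were seen. *Rps13* held 601 reads in ES cells and 235 in the forebrain, while its 5 copies held 623 to 756 reads each in ES cells and 504 to 626 in the forebrain. With the copies added, its log2 ratio fell from 1.92 to 0.95. *Rpl38* held 389 and 331 reads, and its 4 copies together held 8155 and 12665, which brought its log2 ratio from 0.81 to -0.03. *Rpl11* (1.03) and *Rps24* (0.70) likewise ended near 0, at -0.01 and -0.04. Over the 82 genes, the copies moved the median log2 ratio from 1.08 to 0.95 and the number of genes past 2-fold from 46 to 37. Of the 82 genes, 79 were then above 0, of which 77 had been so before. *Rpl22* (0.19) and *Rpl29* (0.15) changed from below to above 0 and *Rpl11*, *Rpl38* and *Rps24* from above to below. The copies could also hold reads of transcripts in which they lie, whose part was not tested.

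Uniqueness of sequence went with both the level and the difference. It was measured as the share of the 50-base windows of an mRNA (the annotated transcript with the longest coding sequence) that occur only once in the genome, and 50 bases is the shorter of the read lengths given for these libraries. Over the 76 genes, divided by this share into groups of 25, 25 and 26, the median level in ES cells was 1150 RPKM where 0 to 9.61% of windows were unique, 2055 RPKM at 9.95 to 35.9% and 3092 RPKM at 36.6 to 100%. The median log2 ratio went the other way, at 1.28, 0.98 and 0.75, and the number of genes past 2-fold was 21 of 25, 12 of 25 and 10 of 26. Spearman's rho of the unique share was 0.38 with the ES cell level and -0.38 with the log2 ratio, and rho of the number of copies with the log2 ratio was 0.48, as descriptions over 76 genes that share libraries and mapping. Windows of 100 bases gave rho of 0.36 and -0.37.

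Windows found at 5 or more other places in the genome, which is more places than the shares of 1/5 of a read cover, were also counted. The 32 genes without such windows had a median log2 ratio of 0.73, and 31 of them were higher in ES cells. The 9 genes with such windows along at least 50% of the mRNA had a median of 1.38, among them *Rps12* (78.2% of windows), *Rps2* (84.5%), *Rpl17* (77.5%) and *Rpl35a* (73.4%), but also *Rpl29*, the lowest ratio of all, with 94.4%. The 9 of these 76 genes with at least 80% unique windows included *Rpl22* (-0.03), *Rpl4* (0.49), *Rpl24* (0.54), *Rps3* (0.71), *Rpl8* (0.72), *Rps15a* (1.23), *Rps20* (1.32) and *Rpl13a* (1.55, of whose exons 1138 of 3316 bp overlap *Flt3l* on the same strand). Thus 8 of 9 were higher in ES cells, with a median of 1.63-fold beside 2.12-fold over the 76 genes. Adding the paralogs *Rpl39l* (8.67) and *Rps27l* (1.21), 10 of 11 were higher in ES cells, with a median of 1.65-fold beside 2.12-fold over the 82 genes. The set depends on the transcript used, as that of *Rps15a* had 5081 windows, that of *Rpl24* 4950 and that of *Rps20* 3657, beside 813 for *Rpl8*. A high unique share along so long a transcript need not hold for its coding bases. The entry listed as *Rpl24* had 100% unique windows and 0 annotated copies, and may hold more than the mRNA of this gene. Its place among the 9 genes is therefore uncertain. Genes of this set can still have copies, with 10 for *Rps15a*, and those of *Rpl13a* held 36762 and 30808 reads beside 29157 and 14839 of its own. With the copies added, the log2 ratio became 1.11 for *Rpl13a*, 1.10 for *Rps20* and 1.06 for *Rps15a*. That of *Rpl22* rose to 0.19. The part of read assignment in the remaining difference was not tested.

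**Figure D5:**
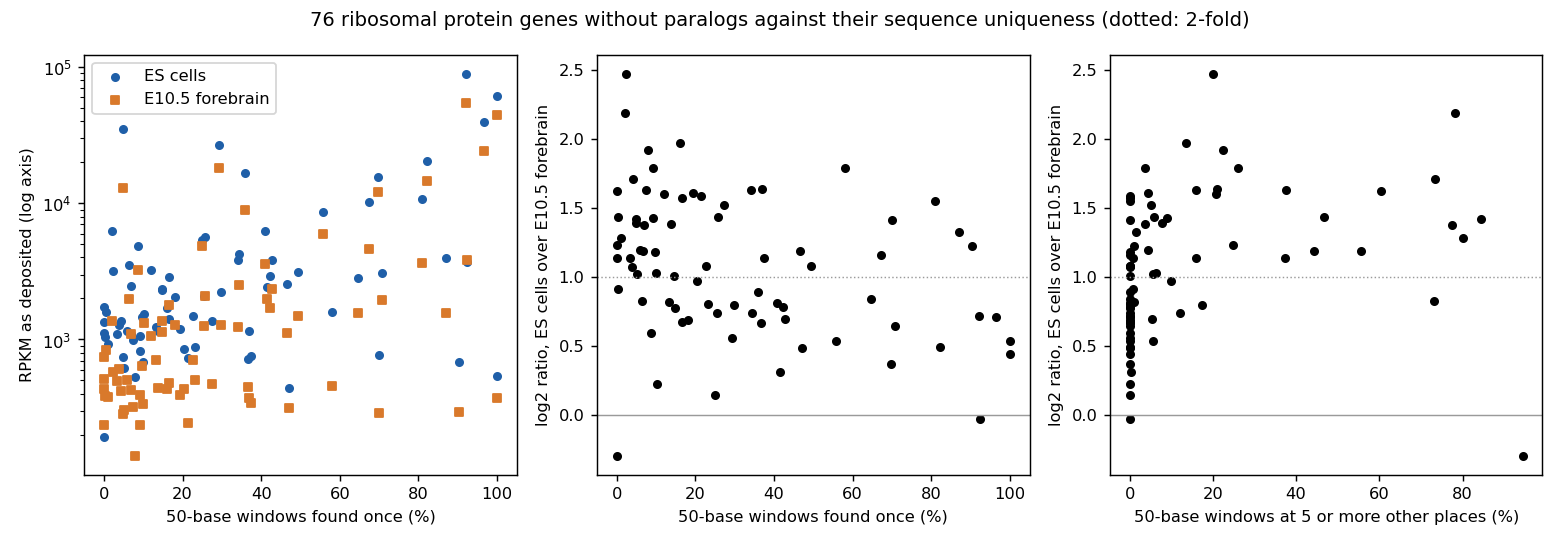
The 76 genes without paralogs by the percent of their 50-base windows found once in the genome, against level in RPKM (left, log axis; blue circles ES cells, orange squares the forebrain) and log2 ratio of ES cells over the forebrain (middle), and by the percent of windows at 5 or more other places against the log2 ratio (right). Levels tend to be higher and ratios lower to the right of the left and middle panels, and the ratios of genes with no window at 5 or more other places centre on 0.73.

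Several of these genes also host small nucleolar RNAs (snoRNAs), which guide the modification of ribosomal RNA and are present in libraries of total RNA. Of the 76 genes, 30 held an annotated snoRNA gene on their strand and had a median log2 ratio of 1.30, beside 0.94 for the other 46. In 15 of them the snoRNA lay on an annotated exon, with a median of 1.32, beside 0.98 for the 61 without, of which 30 passed 2-fold. The snoRNA with the most reads was *Snord15b* on an exon of *Rps3*, with 56064 reads in ES cells and 54842 in the forebrain, where *Rps3* itself was listed with 146177 and 133318. *Rps2* similarly held *Snora64*, with 24829 and 13849 reads of snoRNA beside 52428 and 29101 for the gene. In *Rplp2*, *Snora52* had 11055 and 6489 reads beside 17424 and 11617 for the gene. Whether reads of the snoRNA were also counted for the host gene is not given in the sources used here, and its part in these levels was not tested.

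Other genes of the translation machinery were read as lists, each beside the same 22.7% of all genes tested that passed 2-fold in ES cells. The 3 ribosomal proteins under other names were higher in ES cells but none reached 2-fold, with 42695 and 26004 RPKM for *Gnb2l1* (1.64-fold) and 15082 and 11617 RPKM for *Fau* (1.30-fold). All 6 listed genes with an elongation factor symbol were higher in ES cells. Of these, 3 passed 2-fold, among them *Eef1a1* at 6849 and 2441 RPKM (2.81-fold) and *Eef1e1* (2.07-fold), which was listed by its symbol only. Of 25 genes of ribosome assembly and rRNA synthesis, 24 were higher in ES cells and 14 passed 2-fold, with a median log2 ratio of 1.07 and the widest difference for *Rrn3*, an initiation factor of RNA polymerase I (4.00-fold). Mitochondrial ribosomal proteins differed less, as 52 of 76 were higher in ES cells, 7 passed 2-fold in that direction and 1 in the other, with a median of 0.31. A list of 11 other mRNAs with a TOP start, drawn up apart from the elongation factors and *Gnb2l1*, had a median of 0.23. Only *Npm1* of these 11 passed 2-fold (3.07-fold). Of 10 regulators of growth and translation, only 4 were higher in ES cells, with a median log2 ratio of -0.23, and 1 passed 2-fold in each direction. These were *Eif4ebp1*, a repressor of cap-dependent translation, 7.90-fold higher in ES cells, and *Mycl1*, higher in the forebrain with 909.7 against 395.5 RPKM. The transcripts of *Mtor* (514.6 and 424.1 RPKM) and *Larp1* (464.4 and 311.2 RPKM) differed by less than 2-fold. Copies and unique windows were examined only for the 83 ribosomal protein genes and not for these lists. No list was compared with another by a test.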

How the data were processed

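Strand-specific single-end libraries were made from rRNA-depleted total RNA, 1 of ES cells and 1 of E10.5 forebrain. The paper gives reads of 50 bp and the labels 100 bp. Mapping by the authors used NCBIM37 (mm9) and HTSstation (Bowtie 0.12.7 in the submitters' processing notes) and the authors deposited an RPKM value per gene, whose scaling and handling of reads with several matches are not given in the sources used here. The genes and lists were chosen with earlier results of these data known.

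Genes were joined to the annotation of the same build. Reads per gene were inferred from the value of 1 read, from genes whose exonic length is 2500 bp or less. Levels carry exact Poisson intervals and ratios exact binomial intervals. Ratios used a pseudocount of 1 and a minimum of 10 RPKM in either sample. Fold values of single genes are ratios of RPKM without the pseudocount. Windows were searched in 21 chromosomes, exact and on both strands, and copies by blastn 2.17.0. Named genes were those past 2-fold, the 5 highest and lowest by level and ratio, paralogs, stalk and X-linked genes, of which not all are described, and some genes are not reported here. The steps were tested on simulated data. Alternatives covered scaling, pseudocount, filter, fold, background and members. The tools were numba 0.67.0, biopython 1.88, numpy 2.4.6, matplotlib 3.10.9, scipy 1.17.1 and pandas 2.3.3 under Python 3.11.15.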

Additional observations from a re-analysis of the deposited data

How the results depend on the processing

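No paired analysis was possible because each group has 1 sample, and leaving out a replicate was not possible for the same reason. Of 49 alternatives, 29 stayed within the counting error of a typical gene or within 1.5 times a count, 20 moved and 0 reversed. The median log2 ratio of 1.08 became 0.95 scaled to the reads on genes, 0.95 with the copies added, 0.72 for the 11 genes with at least 80% unique windows and 0.98 for the 67 genes without a snoRNA on an exon. These last 2 choices, made after seeing the data, left 5 and 33 genes past 2-fold in ES cells and 0 in the forebrain. With the paralogs also left out, they gave medians of 0.71 (9 genes) and 0.98 (61 genes) and counts of 3 and 30, beside 43 of the 76 genes. Counts of 37 and 48 were obtained with that scaling and with upper quartile scaling, and 69 at 1.5-fold. The difference from the background of 1.10 became 1.28 against protein-coding genes, whose median lies 0.18 lower. The SD of 1.28 fell to 0.51 without the paralogs, so it rests on *Rpl10l* and *Rpl39l*. The ratio of summed RPKM of 1.75 became 1.64 with that scaling, 1.86 with upper quartile scaling and 1.90 without the 5 highest genes. The shares of reads of 1.64% and 0.987% became 2.31% and 1.30% of protein-coding reads, and 2.40% and 1.54% with copies. Without the 20 genes with the most reads, which include *Rps3*, the shares of the other 82 genes were 1.60% and 0.926%. Depth limits the ratios of *Rpl10l* and *Rpl39l*, which rest on 5 and 13 forebrain reads, and leaves the order of *Rpl3l* unresolved. Variation between samples of a cell type is not covered.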
